A study of Mus musculus with 16 samples.

Results

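The response of cultured mouse astrocytes to an inflammatory stimulus was compared between wild type (WT) cells and cells without NLRX1, gene by gene and litter by litter. All 16 of the 16 libraries were used, in 4 conditions with 4 litters per genotype, and each litter gave 2 libraries, one from vehicle-treated and one from stimulated cells. The response of a litter is its log2 CPM (read counts scaled to the library size) under LPS+IFNγ minus that of its own vehicle library. The interaction of a gene is the mean response of the Nlrx1-/- litters minus the mean response of the WT litters, so a value of 1 means a ratio of stimulated to vehicle level that is 2 times that of WT.

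Cells came from brains of postnatal day 6 C57BL/6J pups, were enriched for astrocytes with beads against ACSA-2, and were grown without serum but with heparin-binding EGF for about 10 days. Cultures of WT and Nlrx1-/- pups received either water as vehicle or lipopolysaccharide (LPS, a component of bacterial walls that is sensed by Toll-like receptor 4) at 500 ng/mL plus IFNγ, a cytokine of activated lymphocytes, at 10 ng/mL, in each case for 24 h. The deletion is constitutive, so no group lacks NLRX1 only in astrocytes, and the cells of a litter are pooled.

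NLRX1 belongs to the NOD-like receptors, is found mainly at mitochondria, and is known for limiting NF-κB and interferon signalling. LPS activates NF-κB, which drives cytokines, chemokines and its own inhibitors. IFNγ acts through JAK kinases and drives antiviral GTPases and antigen presentation. Astrocytes under such stimuli lower some genes of their resting functions, such as glutamate uptake and potassium buffering, and raise others that mark a reactive state.

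Salmon assigned between 27259420 and 43752903 read pairs to transcripts per library, with a median of 35554625, and the deposited table holds 16707 genes. Nlrx1 (chromosome 9, 44164011 to 44179896, GRCm39) had a log2 CPM of 4.08 to 4.44 over WT libraries and of 1.09 to 2.96 over Nlrx1-/- ones, so the groups did not overlap and no library went against its label. Its response in the WT litters, numbered 1 to 4, was -0.36, -0.04, 0.01 and -0.02, and that of the Nlrx1-/- litters -0.05, -0.88, -0.75 and -0.63. All 9 astrocyte markers were in the table, and of 13 microglia markers 11 were outside it, each with at most 20 estimated reads in any library.

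No gene passed the test of the interaction. By limma on the log2 CPM with litters as blocks, 0 of 16707 genes (0%) had an adjusted p below 0.05 in either direction, and the lowest value was 0.164. Before adjustment, 1129 genes had p below 0.05 with a larger log2 response in Nlrx1-/- (6.76% of all genes) and 1657 with a smaller one (9.92%). The quasi-likelihood test of edgeR on counts also called 0 genes, with a lowest adjusted p of 0.18, whereas DESeq2 on the same counts called 127 genes with a larger and 234 with a smaller response.

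By limma, whether any gene was called depended on a single litter. Without Nlrx1-/- replicate 3, limma called 378 genes with a larger and 444 with a smaller response. With any other litter left out it called 0, and the lowest adjusted p then lay between 0.0766 and 0.398. All 361 genes called by DESeq2, and 783 of the 822 called without that litter, had an unadjusted p below 0.05 with all litters in. The 83 genes named by rule below had adjusted p-values between 0.164 and 0.351 by limma, so each interaction given here is an estimate that did not pass the correction.

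The responses themselves involved about as many genes in each genotype. LPS+IFNγ raised 4154 genes (24.9%) and lowered 3656 (21.9%) in WT, and raised 4448 (26.6%) and lowered 4256 (25.5%) in Nlrx1-/- cells (limma, adjusted p below 0.05). Across genes, which are not independent replicates, the litter responses had a Pearson r of 0.77 to 0.806 between WT litters, 0.713 to 0.798 between Nlrx1-/- litters and 0.701 to 0.804 between litters of different genotype. The median absolute interaction was 0.181 log2 units and its median standard error 0.154. The median SD between litters was 0.178 in WT and 0.244 in Nlrx1-/-, and 64.2% of genes had the larger SD in Nlrx1-/- cells.

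**Figure D1:**
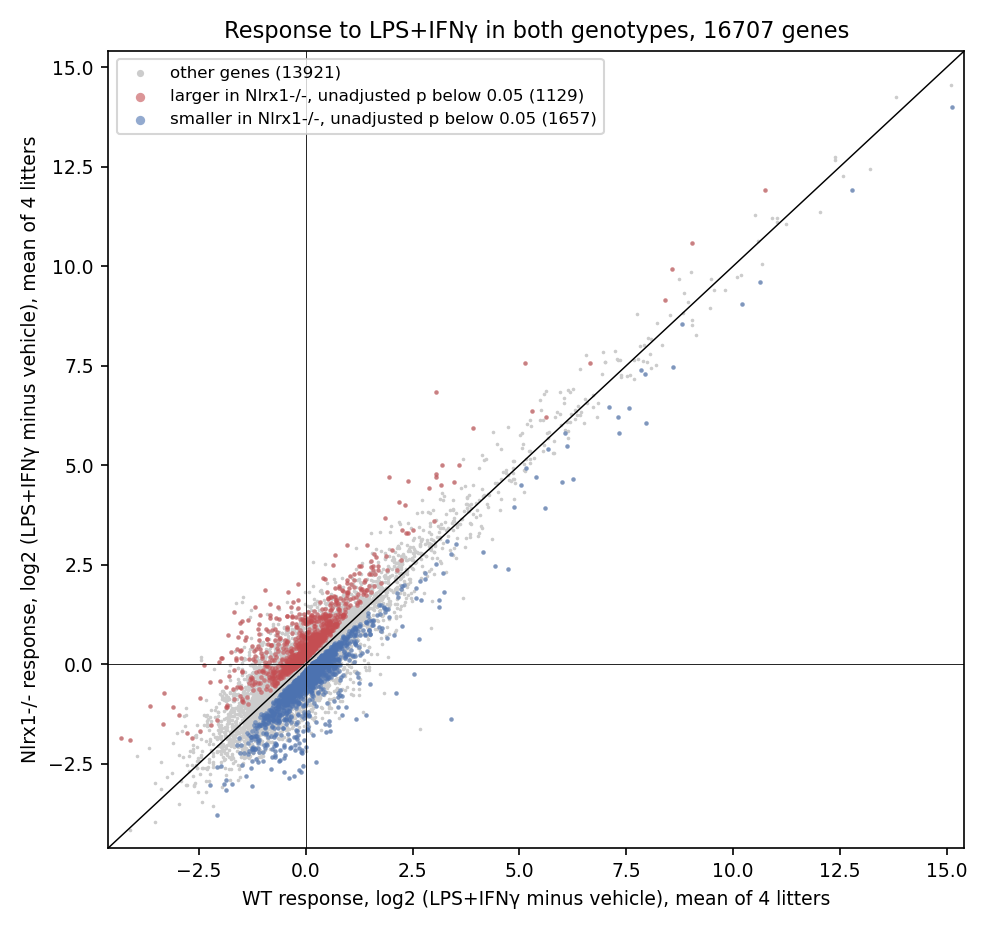
Mean log2 response to LPS+IFNγ of each of 16707 genes in WT litters (x axis) and Nlrx1-/- litters (y axis), with the line of equal response. Red points are the 1129 genes with a larger and blue points the 1657 with a smaller response in Nlrx1-/- at an unadjusted p below 0.05, and most points lie along the line.

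The Nlrx1-/- litters were not alike. The response of Nlrx1-/- litter 4 lay above all WT litters for 5092 genes (30.5%) and below them for 5344 (32%), and that of litter 2 for 4748 (28.4%) and 5116 (30.6%). The response of litter 1 lay above for 3797 (22.7%) and below for 4061 (24.3%), and that of litter 3 above for 2911 (17.4%) and below for 4043 (24.2%). A litter no different from the WT litters would also lie outside all of them for many genes, a share not counted here. The SD of the response across genes was 1.27 and 1.39 in Nlrx1-/- litters 2 and 4, and between 1.11 and 1.19 in the other 6 litters. Gfap, the intermediate filament of astrocytes, was at a log2 CPM of 7.37 and 8.35 in the vehicle libraries of litters 2 and 4, below 9.51 and 10.45 in litters 1 and 3 and 9.70 to 11.34 in the WT litters.

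What a larger or smaller response consisted of was read from the responses of each genotype. Among the 1129 genes with a larger log2 response, 292 (25.9%) rose in both genotypes and rose more in Nlrx1-/- by estimate, and for 394 (34.9%) the rise was called only in Nlrx1-/- cells. A further 78 (6.91%) fell in both and fell less, and for 227 (20.1%) the fall was called only in WT cells. In 4 (0.354%) a fall was called in WT and a rise in Nlrx1-/-, and 134 (11.9%) had no called response. A response called in one genotype alone is not by itself a difference between genotypes, and the interaction is what compares them. When 1 litter was left out, stronger rises numbered from 156 without WT replicate 3 to 604 without Nlrx1-/- replicate 3, and rises called in Nlrx1-/- alone from 231 without Nlrx1-/- replicate 4 to 576 without Nlrx1-/- replicate 3. Weaker falls numbered from 46 without WT replicate 4 to 104 without WT replicate 1, and falls called in WT alone from 138 without WT replicate 3 to 301 without Nlrx1-/- replicate 3.

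The genes named for each kind are the 3 with the largest interaction whose litter responses do not overlap between genotypes, so the lack of overlap follows from the choice. Of all genes, 512 (3.06%) had all Nlrx1-/- litters above all WT litters and 877 (5.25%) had them all below.

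Among stronger rises, Shisa3 (chromosome 5, 67765217 to 67780895, GRCm39), a membrane protein that dampens Wnt and FGF receptors, responded by 2.37, 1.58, 1.43 and 2.08 in WT and by 3.39, 4.43, 2.65 and 4.25 in Nlrx1-/- litters, each in the order of their numbers. The weakest response without NLRX1 was thus just above the strongest WT response, and the interaction was 1.81 (standard error 0.35, adjusted p = 0.164 by limma). Steap4 (chromosome 5, 8010260 to 8032214, GRCm39), a metalloreductase induced by inflammation and a marker of reactive astrocytes, responded by 3.12, 3.31, 2.86 and 3.47 in WT and by 4.86, 6.15, 3.81 and 5.15 in Nlrx1-/- litters, an interaction of 1.80 (standard error 0.38, adjusted p = 0.164 by limma). Both genotypes started low, and the Nlrx1-/- vehicle libraries had log2 CPM of 1.03, 0.93, 1.71 and 1.40 for Steap4 against 1.61, 2.11, 1.59 and 2.02 in WT. Casp1, the protease that processes interleukin-1β, responded by 5.07 to 5.47 in WT and 5.74 to 7.17 in Nlrx1-/- litters, an interaction of 1.07.

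Where the rise was called only in Nlrx1-/- cells, litters 2 and 4 had the highest responses of the named genes. Crispld2, a secreted LPS-binding protein, responded by 0.02, -0.25, -0.50 and -0.50 in WT litters and by 0.96, 3.01, 0.17 and 2.10 in Nlrx1-/- litters, an interaction of 1.87 (standard error 0.47). Col25a1, a membrane collagen, responded by -0.67 to -0.05 in WT and by 0.02, 1.76, 0.04 and 1.72 in Nlrx1-/- litters. Nlrx1-/- litters 2 and 4 were the high ones in both genes, and litters 1 and 3 were close to WT for Col25a1. Olfml2b, a secreted olfactomedin-like protein, had the same order, with 0.98, 1.86, 0.13 and 1.54 against -0.55 to 0.07 in WT.

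Weaker falls were fewer. Grb10, an adaptor that restrains insulin and IGF1 receptors, fell by 1.52 ± 0.15 (SD, 4 litters) in WT and by 0.60 ± 0.62 in Nlrx1-/- cells, where litter 3 was at -1.32, close to the WT range, and litter 2 at 0.07. The metalloproteinases Adamts9 and Mmp2 fell by 1.33 and 1.26 in WT and by 0.48 and 0.53 in Nlrx1-/-, with interactions of 0.86 and 0.73. Where the fall was called only in WT, Loxl2, which cross-links collagen, responded by -1.35, -1.01, -1.18 and -1.80 in WT and by -0.32, 0.89, -0.58 and 0.55 in Nlrx1-/- litters. Npas4, an activity-induced transcription factor, had -2.26 to -0.42 against -0.08 to 2.00, and Tm4sf1, a membrane protein listed as a reactive astrocyte marker, -1.16 to -0.66 against -0.58 to 1.29. For these 3 genes the Nlrx1-/- responses lay on both sides of 0.

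Only 4 genes had a called fall in WT and a called rise in Nlrx1-/- cells, St3gal1, Tead1, Plxna1 and Tmem150c, the last named after its values were seen. Other genes with opposite signs, such as Col25a1 and Snhg12, did not have both calls. St3gal1 (chromosome 15, 66974724 to 67048690, GRCm39), a sialyltransferase, responded by -0.48, -0.60, -0.39 and -1.11 in WT and by 0.25, 1.01, 0.11 and 0.70 in Nlrx1-/- litters, so the sign was opposite in every litter, and the interaction was 1.16 (standard error 0.22, adjusted p = 0.164 by limma). Tead1, the transcription factor at the end of the Hippo pathway, had -0.23 in WT and 0.25 in Nlrx1-/-, and Plxna1, a semaphorin receptor, -0.20 and 0.20. One WT litter had a positive response of Tead1, 0.11, and one Nlrx1-/- litter a response of Plxna1 of -0.01. Tmem150c was low, with 11 to 85 reads per library, and responded by -0.89 in WT and 0.84 in Nlrx1-/-. The number of such genes ranged from 0 to 19 when 1 litter was left out, with 0 without Nlrx1-/- replicate 4 and 19 without Nlrx1-/- replicate 3.

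The lowest unadjusted p among larger responses belonged to Gas6, Flvcr1 and Fbln2. Gas6, a ligand of the TAM receptors through which dying cells are engulfed, responded by 0.39, 0.22, 0.29 and 0.18 in WT and by 0.91, 1.03, 0.56 and 0.97 in Nlrx1-/- litters, a rise in both genotypes with an interaction of 0.60 (standard error 0.11). Flvcr1, a membrane transporter, fell by 1.01 ± 0.29 (SD, 4 litters) in WT, and its response in Nlrx1-/- was -0.17 ± 0.17. Fbln2, an extracellular matrix protein, fell by 0.53 ± 0.04 in WT and was at -0.04 ± 0.20 in Nlrx1-/-. Among larger responses with neither response called, the non-coding RNA Snhg12 had an interaction of 0.76, and Nkiras1, a Ras-like protein that binds IκB, and the nucleolar protein Nol8 had 0.41 and 0.38.

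Among the 1657 genes with a smaller log2 response, falls outnumbered rises. For 409 genes (24.7%) the fall was called in both genotypes and was deeper in Nlrx1-/- by estimate, and for 485 (29.3%) it was called only in Nlrx1-/- cells. In 246 (14.8%) a rise was called in both and was weaker in Nlrx1-/-, and in 373 (22.5%) the rise was called only in WT. In 11 (0.664%) a rise was called in WT and a fall in Nlrx1-/-, and 133 (8.03%) had no called response. With 1 litter left out, stronger falls numbered 255 to 578 and falls called in Nlrx1-/- alone 302 to 569, weaker rises 158 to 279 and rises called in WT alone 226 to 408. The lowest of these counts came without WT replicate 3, Nlrx1-/- replicate 4, WT replicate 2 and WT replicate 3, and the highest without Nlrx1-/- replicate 3, or without WT replicate 1 for weaker rises.

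Among stronger falls, Gpr37, a receptor of the oligodendrocyte lineage that astrocytes also carry, responded by -0.97, -1.77, -1.09 and -1.19 in WT and by -2.25, -3.02, -2.41 and -4.53 in Nlrx1-/- litters, an interaction of -1.80 (standard error 0.43, adjusted p = 0.164 by limma). In the stimulated libraries its log2 CPM was 1.34, -0.19, 0.83 and -0.79 in Nlrx1-/- against 1.64, 2.03, 2.39 and 2.92 in WT, while the vehicle libraries overlapped. Acat3, an acetoacetyl-CoA thiolase with close relatives that reads could be split between, fell by 1.40 ± 0.29 (SD, 4 litters) in WT and by 2.81 ± 0.74 in Nlrx1-/-. Hes5, a Notch target that keeps glial progenitors undifferentiated, fell by 0.74 ± 0.36 and 2.06 ± 0.80, with -0.96, -1.02, -0.75 and -0.23 in WT and -1.84, -2.17, -1.15 and -3.07 in Nlrx1-/- litters. Litter 4 was the lowest of the Nlrx1-/- litters in all 3 genes.

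Falls called in Nlrx1-/- alone were led by Clgn, an endoplasmic reticulum chaperone, Bfsp2, an intermediate filament protein, and Rasgrp2, an activator of the GTPase Rap1. Their mean responses were -0.19, -0.40 and -0.35 in WT and -1.25, -1.40 and -1.34 in Nlrx1-/-, with interactions of -1.06, -1.0 and -0.99. Rises called in WT alone were led by Plekhd1, Gabbr2, a subunit of the GABA-B receptor, with interactions of -1.24 and -1.09, and E2f1, the transcription factor that starts the S phase program. E2f1 rose by 1.02 ± 0.27 (SD, 4 litters) in WT, and in Nlrx1-/- litters it responded by 0.31, -0.79, 0.37 and 0.52.

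Weaker rises included genes that were almost absent from vehicle libraries, for which a log2 response depends on the small count added before the logarithm. Ly6a, a surface protein induced by interferon, had 0 reads in all 4 WT vehicle libraries and 0 to 5 in the Nlrx1-/- ones. Its stimulated level was 5.62, 6.21, 6.18 and 6.33 log2 CPM in WT and 5.24, 5.62, 5.59 and 5.79 in Nlrx1-/-, so 3 of the 4 WT litters were above every Nlrx1-/- litter. H2-Q9, a class I MHC chain whose reads can be split among near-identical genes, had 0 reads in 1 vehicle library, and that WT litter had a response of 11.04 against 6.19 to 7.59 in the others. Ccne1, the cyclin that drives entry into S phase, rose in both genotypes, by 0.90, 1.33, 1.33 and 1.45 in WT and by 0.67, -0.30, 0.59 and 0.81 in Nlrx1-/- litters.

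Tk1 (chromosome 11, 117702770 to 117717042, GRCm39), the thymidine kinase of dividing cells, rose in WT and fell in Nlrx1-/- cells on average. Its response was 0.25, 1.03, 0.87 and 1.06 in WT and -0.25, -0.91, 0.02 and -0.45 in Nlrx1-/- litters, an interaction of -1.20 (standard error 0.21, adjusted p = 0.164 by limma). In vehicle its log2 CPM was 5.37, 4.24, 4.40 and 3.79 in WT and 5.69, 5.49, 5.26 and 5.06 in Nlrx1-/-. Under LPS+IFNγ it was 5.63, 5.27, 5.27 and 4.84 in WT and 5.43, 4.58, 5.28 and 4.61 in Nlrx1-/-. In both conditions the groups overlapped, and Nlrx1-/- litter 3 had a response close to 0. The genotypes were thus further apart in vehicle, by 0.93, than after stimulation, by -0.28.

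The other reversals of this direction were small. Pacsin3, an adaptor of endocytosis with the lowest unadjusted p of all genes (3.2e-05), responded by 0.24, 0.45, 0.30 and 0.09 in WT and by -0.40, -0.40, -0.29 and -0.48 in Nlrx1-/- litters. S100a6, a calcium-binding protein, responded by 0.15, 0.55, 0.55 and 0.35 against -0.30, -0.26, -0.16 and -0.38, and Nudt1, which removes oxidised nucleotides, by 0.17 to 0.75 against -0.51 to -0.13. In all 3 the sign was opposite in every litter. Among genes with neither response called, Orc1, Exosc6, of the RNA exosome, and Gins1, of the replicative helicase, had interactions of -0.91, -0.88 and -0.76. The remaining 7 reversals included Acot1, Arl3, C130050O18Rik, Hmgb3, Pfkm and Top2a, of which all but Pfkm were named after their values were seen. The number of 11 reversals ranged from 2 to 30 when 1 litter was left out, with 2 without WT replicate 3 and 30 without Nlrx1-/- replicate 3.

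**Figure D2:**
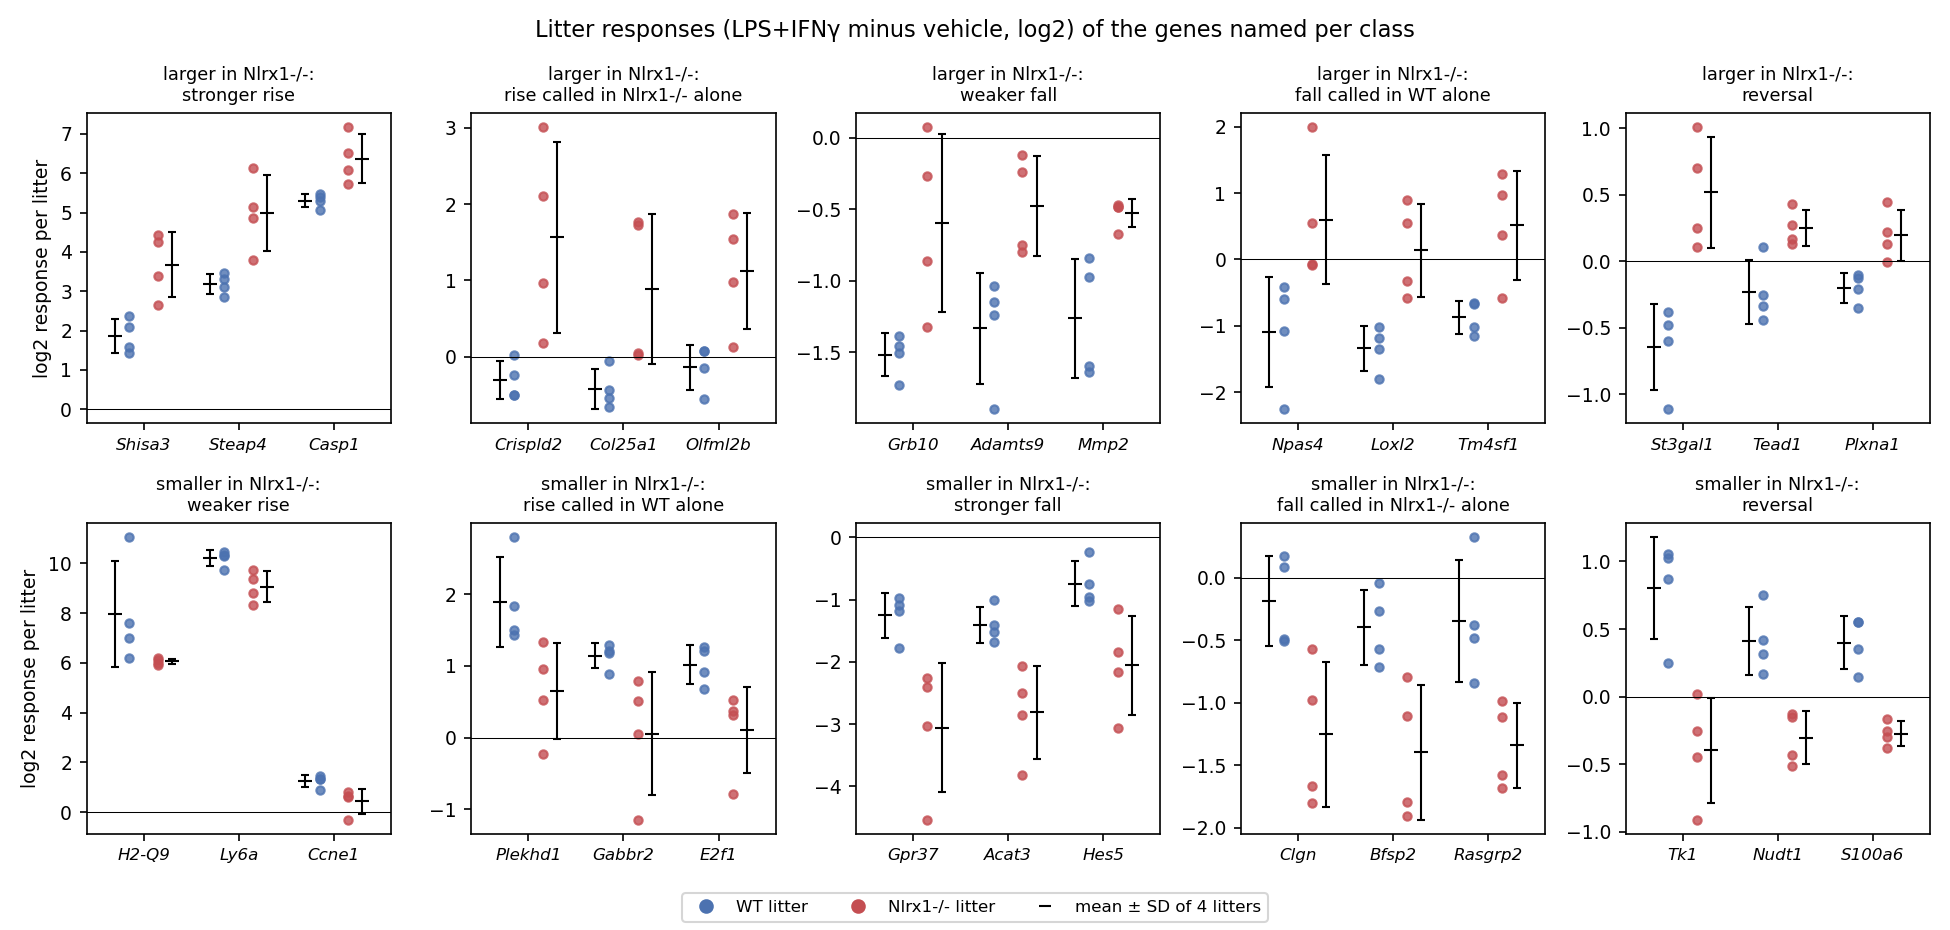
Log2 response per litter (y axis) of the 3 genes named for each of 10 kinds of larger or smaller response, with WT litters in blue, Nlrx1-/- litters in red and the mean ± SD of 4 litters in black. By the rule the colours do not overlap for any gene, and Nlrx1-/- points are more spread than WT points in most panels. The values of Ly6a and H2-Q9 depend on vehicle libraries with 0 reads.

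A difference in response can come from the vehicle or from the stimulated libraries. Among the 1129 genes with a larger response, Nlrx1-/- minus WT had a median of -0.058 log2 units in vehicle and 0.33 under LPS+IFNγ, and the vehicle gap was the wider one for 317 genes (28.1%). Among the 1657 with a smaller response the medians were 0.11 in vehicle and -0.28 under LPS+IFNγ, and the vehicle gap was the wider for 625 (37.7%). The gap had opposite signs in the 2 conditions for 592 (52.4%) and 875 (52.8%) genes. In some kinds of response the median gap was wider in vehicle. It was 0.27 in vehicle and -0.05 under LPS+IFNγ for weaker rises. For rises called in WT alone it was 0.23 and -0.12, and for weaker falls -0.19 and 0.12. These gaps set the litters of one genotype against those of the other and were not tested here. The genes were picked by the difference between the 2 gaps, which favours opposite signs. The same shares over all genes were not counted.

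**Figure D3:**
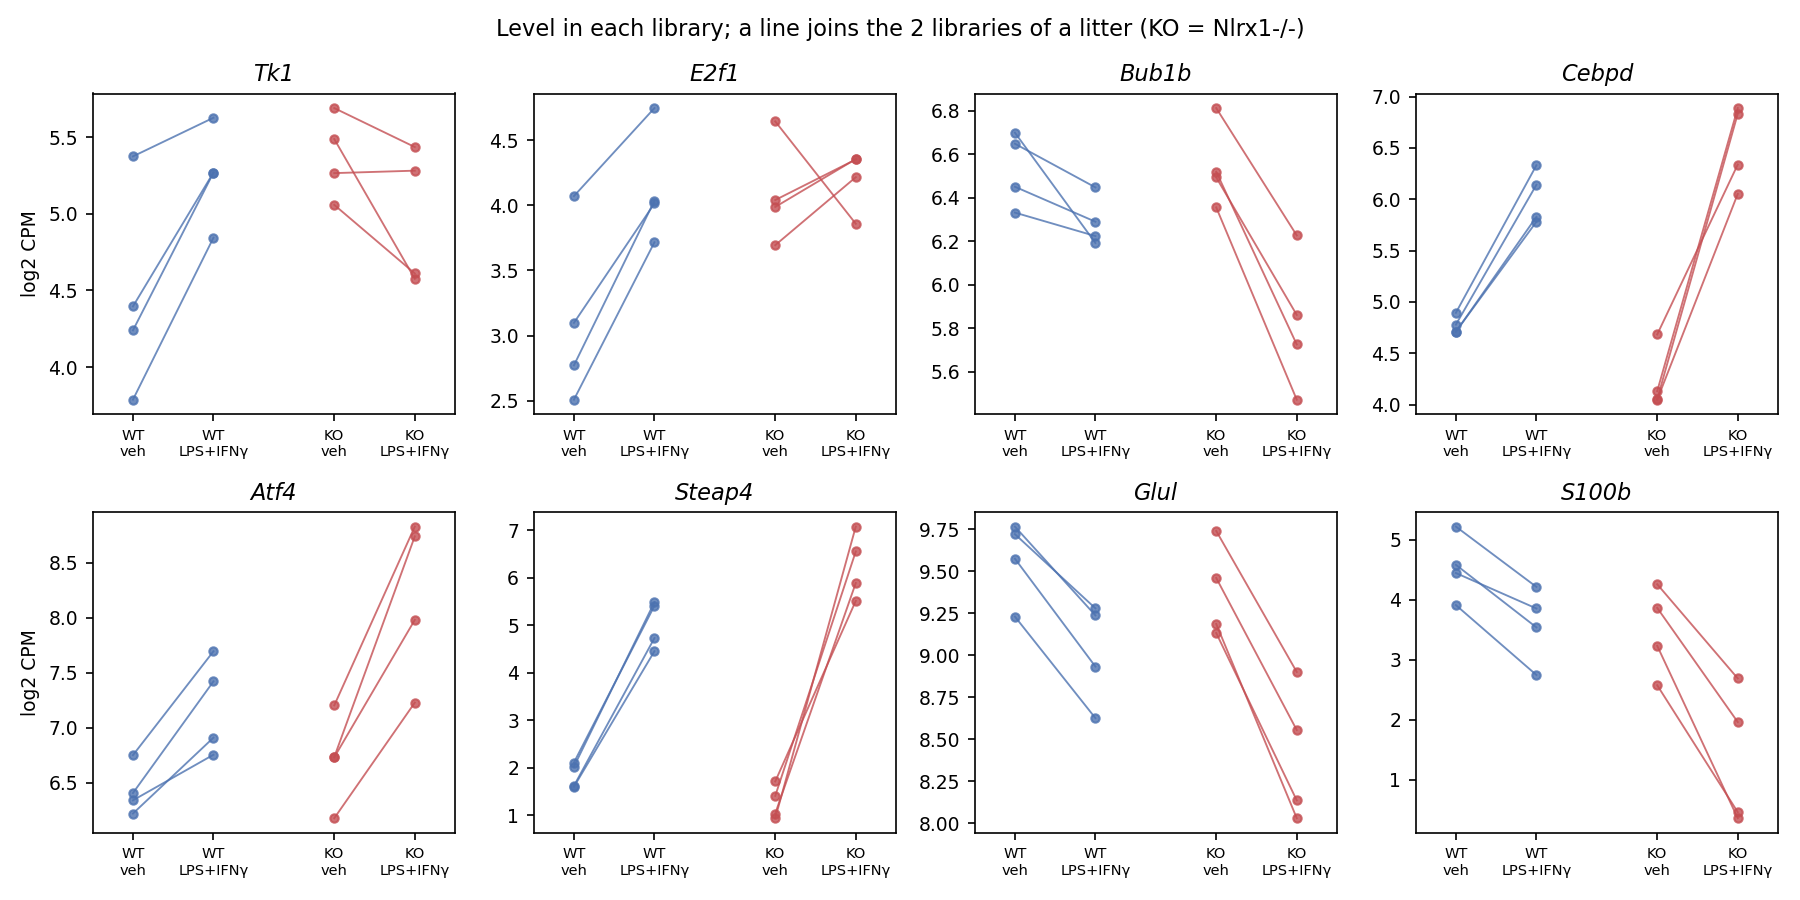
Log2 CPM (y axis) of 8 genes in each library, by condition on the x axis, with a line from the vehicle to the LPS+IFNγ library of each litter (WT in blue, Nlrx1-/- in red). In vehicle, Tk1 and E2f1 are lower in WT litters 2 to 4 than in any Nlrx1-/- litter while WT litter 1 is among the Nlrx1-/- litters, Cebpd is lower in all 4 Nlrx1-/- litters, and S100b ends lowest in Nlrx1-/- litters 2 and 4.

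Of 23 gene lists, each described by its counts and median beside the 6.76% and 9.92% of all genes, the lists with the most members at an unadjusted p below 0.05 concerned DNA replication, mitosis, the integrated stress response, cholesterol synthesis, homeostatic astrocyte genes, immediate-early genes and the respiratory chain. No member of any list passed the adjusted threshold. Genes of a list share the same 8 litters, so their number is no measure of how reproducible a pattern is across litters, and the litter medians are given for the lists that lead in either direction.

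**Figure D4:**
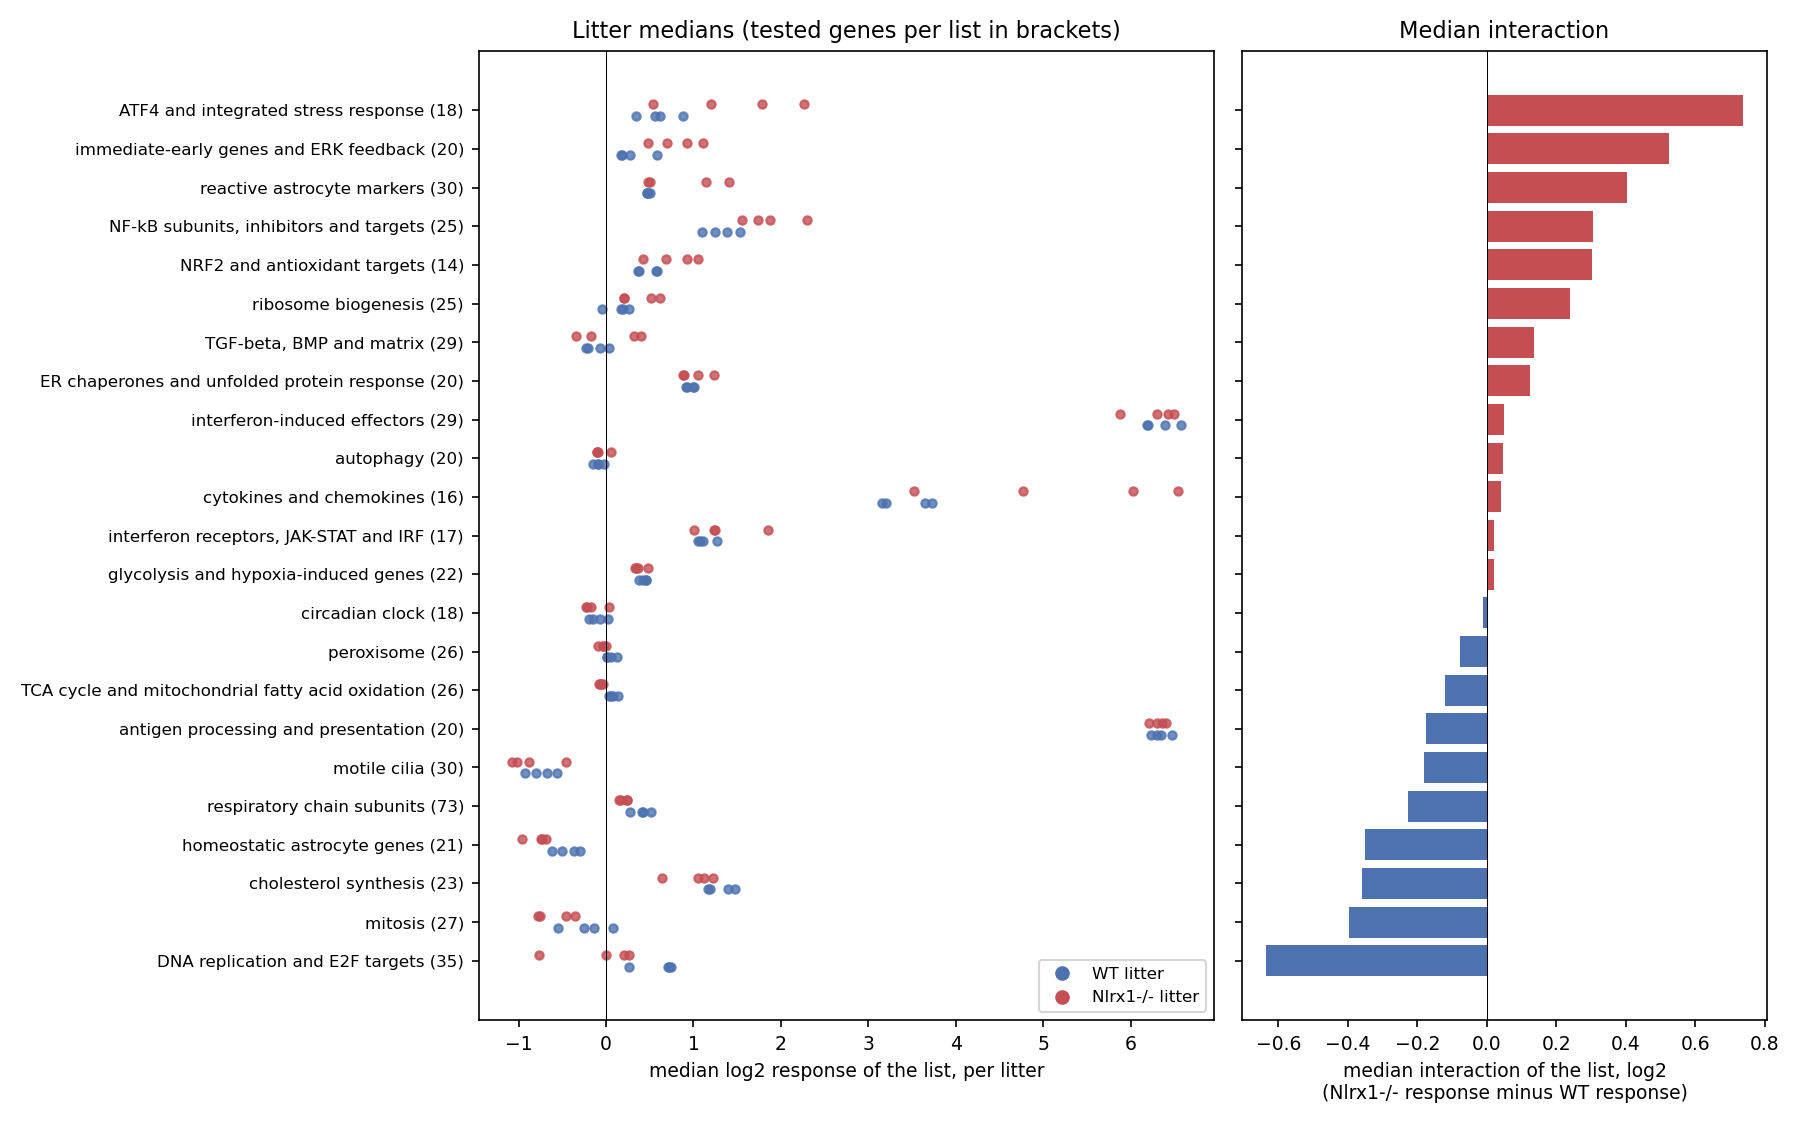
Left, the median log2 response of each of 23 gene lists in each WT (blue) and Nlrx1-/- litter (red), with tested genes in brackets. Right, the median interaction of each list in log2 units, from 0.74 for the ATF4 list at the top to -0.64 for DNA replication at the bottom.

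Of the 35 tested genes of DNA replication and E2F targets, 34 had an unadjusted p below 0.05 toward a smaller response in Nlrx1-/- and 0 toward a larger one, and all 35 interactions were negative, from -1.20 to -0.34. The WT response was a rise. In WT, 28 members rose and 0 fell, with a median response of 0.61, whereas in Nlrx1-/- 1 rose and 3 fell, with a median of -0.08. The litter medians were 0.27, 0.74, 0.71 and 0.72 in WT and 0.21, -0.77, 0.26 and -0.01 in Nlrx1-/-, so WT litter 1 was close to the Nlrx1-/- litters and Nlrx1-/- litter 2 was far below all others. The median interaction of -0.64 ranged from -0.78 to -0.43 when 1 litter was left out, the weakest without Nlrx1-/- replicate 2. Nlrx1-/- minus WT had a median of 0.58 in vehicle and -0.08 under LPS+IFNγ.

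The members span the steps of replication. At origins, Cdc6, which loads the helicase, had an interaction of -1.05, and Orc1, the large subunit of the origin complex, one of -0.91 with 36 to 222 reads per library. The MCM helicase subunits Mcm2 to Mcm7 had interactions from -0.65 for Mcm6 to -0.36 for Mcm7. Among enzymes of nucleotide supply, Tk1 and Rrm2, a subunit of ribonucleotide reductase, had -1.20 and -0.93, and Tyms, the thymidylate synthase, had -0.58. At the fork, Pcna, the sliding clamp, and Lig1, which joins Okazaki fragments, had -0.67 and -0.72. Fen1, the flap nuclease, responded by 0.39, 0.90, 0.73 and 0.87 in WT and by 0.26, -0.66, 0.27 and -0.20 in Nlrx1-/- litters.

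The promoters of these genes are shown because the members moved together and E2F sites are a known shared feature of such genes. A stretch from 250 bases before to 50 bases after the gene start was found for 28 of the 35 genes in RefSeq promoters (GRCm38.p6, a different build from the gene positions above). The letters TTTGGCGC or TTTCGCGC were searched on both strands, and matches may overlap, since GCGC reads the same on both strands. They were present in 11 of the 28 promoters (39.3%), in 1 of 23 mitosis promoters (4.35%) and in 206 of 12847 promoters of all tested genes (1.6%). Promoters of 3 members follow, with matches in capitals.
Mcm3, chr1:20820263-20820562, minus strand: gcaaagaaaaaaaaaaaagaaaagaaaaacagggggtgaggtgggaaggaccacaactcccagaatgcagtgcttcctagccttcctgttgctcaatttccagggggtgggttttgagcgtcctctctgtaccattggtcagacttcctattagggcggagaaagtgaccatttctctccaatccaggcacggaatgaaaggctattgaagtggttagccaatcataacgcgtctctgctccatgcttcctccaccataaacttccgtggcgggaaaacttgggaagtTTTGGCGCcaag
Mcm6, chr1:128359656-128359955, minus strand: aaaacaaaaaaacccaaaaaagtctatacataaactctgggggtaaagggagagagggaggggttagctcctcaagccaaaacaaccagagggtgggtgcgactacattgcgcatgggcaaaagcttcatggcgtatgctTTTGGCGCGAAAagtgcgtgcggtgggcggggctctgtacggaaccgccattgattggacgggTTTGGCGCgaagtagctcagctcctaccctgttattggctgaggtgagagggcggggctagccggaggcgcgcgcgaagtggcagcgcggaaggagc
Orc1, chr4:108579204-108579503, plus strand: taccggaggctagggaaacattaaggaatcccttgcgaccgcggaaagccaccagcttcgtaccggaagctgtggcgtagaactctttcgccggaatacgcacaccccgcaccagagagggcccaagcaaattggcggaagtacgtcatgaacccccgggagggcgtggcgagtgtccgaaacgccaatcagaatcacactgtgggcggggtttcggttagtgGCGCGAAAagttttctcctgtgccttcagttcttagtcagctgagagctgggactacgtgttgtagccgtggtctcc
The match in Mcm3 begins at position 38, with 0 the first base of the gene, that in Orc1 at -27, and Mcm6 holds 3 matches, of which 2 overlap. A match is a stretch of letters and not a measured binding site. The list holds known E2F targets, so the share with a match does not bear on the difference between genotypes. Mcm3 had a response of 0.74, 0.93, 0.98 and 0.96 in WT litters and of 0.59, -0.60, 0.70 and 0.60 in Nlrx1-/- litters, and Mcm6 one of 0.57, 0.98, 1.01 and 0.99 against 0.56, -0.58, 0.62 and 0.33. In both genes the Nlrx1-/- value farthest from WT was that of litter 2.

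Mitosis genes mostly fell in Nlrx1-/- cells. Of 27 tested members, 24 had an unadjusted p below 0.05 toward a smaller response and 0 toward a larger one, and the fall was deeper in Nlrx1-/- by estimate. In WT 1 member rose and 11 fell, and in Nlrx1-/- 0 rose and 26 fell, with medians of -0.21 and -0.57. The litter medians overlapped, at -0.55, -0.14, -0.25 and 0.08 in WT and -0.36, -0.78, -0.45 and -0.75 in Nlrx1-/-, so WT litter 1 was below Nlrx1-/- litters 1 and 3. Of the 27 members, 2 had litter responses that did not overlap, Bub1b and Aurkb. Over all genes, 5.25% had all Nlrx1-/- litters below all WT litters, so this count is near that share. Bub1b, a spindle checkpoint kinase, responded by -0.51, -0.20, -0.16 and -0.11 in WT and by -0.59, -0.88, -0.63 and -0.79 in Nlrx1-/- litters, and Aurkb, the kinase of the chromosomal passenger complex, had an interaction of -0.67. The lowest WT litter of Bub1b was near its highest Nlrx1-/- litter, and for Aurkb these were at -0.31 and -0.32. The median of Nlrx1-/- minus WT was 0.05 in vehicle and -0.32 under LPS+IFNγ, whereas for the replication genes the vehicle gap was the wider one.

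The NF-κB list held 25 tested genes, of which 23 rose in WT and 24 in Nlrx1-/-, with median responses of 1.45 and 1.73. For 6 members the unadjusted p was below 0.05, each toward a stronger rise, and 0 members went the other way. Among subunits these were Nfkb1 (interaction 0.31) and Relb (0.33), among inhibitors Nfkbib (0.32), and among targets the transcription factors Cebpb (0.76), Cebpd (1.05) and Bcl3 (2.02), an IκB family member that binds p50 and p52. Nfkbia, the classical inhibitor, rose by 1.45 in both genotypes, and Tnfaip3, which ends NF-κB signalling, had responses of 3.27 and 3.57 and an interaction of 0.31 with a standard error of 0.39. The litter medians were 1.10, 1.53, 1.25 and 1.38 in WT and 1.74, 2.30, 1.56 and 1.88 in Nlrx1-/-, the lowest of the latter just above the highest WT litter. The median interaction of 0.31 was 0.20 without WT replicate 1.

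Cebpd (chromosome 16, 15705150 to 15708895, GRCm39), which amplifies acute phase transcription, responded by 1.07, 1.44, 1.12 and 1.36 in WT and by 2.00, 2.76, 1.66 and 2.78 in Nlrx1-/- litters (interaction 1.05, standard error 0.22, adjusted p = 0.164 by limma). Part of that was a lower start, since vehicle log2 CPM was 4.71 to 4.89 in WT and 4.05, 4.13, 4.68 and 4.05 in Nlrx1-/-. Bcl3 also started lower, with 5 to 10 reads in WT vehicle libraries and 0 to 2 in Nlrx1-/- ones, and its stimulated levels overlapped at 1.24 to 2.45 and 1.95 to 2.61 log2 CPM, so the size of its interaction rests on near-zero vehicle counts. Of the promoters found, 7 of 20 (35%) of this list and 174 of 12847 (1.35%) of all tested genes held GGACTTTCC, GGAATTTCC or GGGATTTCC on either strand. The list was made of known NF-κB genes, so this share does not bear on the difference between genotypes.

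Cytokines and chemokines had no common direction. Of 27, 16 were in the table, with 2 at an unadjusted p below 0.05 toward a larger and 1 toward a smaller response. These counts are close to what the shares of all genes, 6.76% and 9.92%, would give for 16 genes. Il1a, Il1b, Il6 and Tnf were outside the table, with at most 1, 2, 15 and 19 estimated reads in a library. Cxcl9, a ligand of CXCR3 on T cells, had at most 1 read in any vehicle library and a stimulated level of 6.59, 7.02, 6.38 and 7.17 log2 CPM in WT and 7.04, 8.40, 7.37 and 8.29 in Nlrx1-/-. Cxcl10, a ligand of the same receptor, had an interaction of -1.01 with responses of 10.61, 10.26, 10.76 and 10.84 against 10.43, 8.56, 10.30 and 9.12, where its vehicle level was higher by 1.32 in Nlrx1-/- and its stimulated level by 0.30. Tslp, an alarmin cytokine, had 15 to 75 stimulated reads in WT and 482, 1439, 120 and 1084 in Nlrx1-/-, with 0 to 8 in any vehicle library. The stimulated Tslp counts did not overlap between genotypes, and Nlrx1-/- litter 3 was the lowest of its group.

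Interferon-induced genes had interactions of both signs. All 29 tested interferon-induced effectors rose in each genotype, with median responses of 6.32 in WT and 6.07 in Nlrx1-/-. Of these effectors, 2 had an unadjusted p below 0.05 toward a larger and 4 toward a smaller response, near the 6.76% and 9.92% of all genes. Their interactions ran from -1.12 to 1.17, and the median of 0.05 changed sign, to -0.07, without Nlrx1-/- replicate 2. Gbp2, a guanylate-binding GTPase, had an interaction of 0.73 and Igtp, an immunity-related GTPase, one of -0.27. Nlrx1-/- minus WT was -0.89 in vehicle and -0.16 under LPS+IFNγ for Gbp2, and -0.13 and -0.40 for Igtp. Among receptors, kinases and factors, 2 of 17 were at an unadjusted p below 0.05 toward a larger and 1 toward a smaller response. Socs3, a feedback inhibitor of cytokine receptors, rose by 0.71, 0.41, 0.28 and 0.53 in WT and by 0.82, 1.85, 0.87 and 1.25 in Nlrx1-/- litters.

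All 20 tested genes of antigen presentation rose in both genotypes. For 5 the unadjusted p was below 0.05 toward a weaker rise, and for 0 toward a stronger one. Psmb10, a subunit of the immunoproteasome, rose by 4.89, 4.98, 4.95 and 5.29 in WT and by 4.54, 4.26, 4.72 and 4.51 in Nlrx1-/- litters, an interaction of -0.52 (standard error 0.11). H2-K1, a class I chain with near-identical relatives, had -0.69. In both genes Nlrx1-/- was higher in vehicle, by 0.46 and 0.64, and within 0.1 log2 units of WT under LPS+IFNγ.

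Respiratory chain subunits, which make up the complexes of oxidative phosphorylation, had smaller responses. Of 73 tested subunits, 70 rose in WT and 43 rose and 1 fell in Nlrx1-/-, with median responses of 0.41 and 0.19. The interaction was negative for 70 and had an unadjusted p below 0.05 for 43, with 0 in the other direction. By complex, 19 of 35 subunits of complex I, 4 of 4 of complex II, 4 of 9 of complex III, 4 of 10 of complex IV and 12 of 15 of the ATP synthase were among the 43. Ndufv3, of complex I, responded by 0.42, 0.47, 0.64 and 0.44 in WT and by 0.16, -0.04, 0.10 and -0.10 in Nlrx1-/- litters (interaction -0.46, standard error 0.09), and Uqcrh, of complex III, had an interaction of -0.50. The litter medians were 0.27, 0.42, 0.51 and 0.41 in WT and 0.17, 0.14, 0.24 and 0.24 in Nlrx1-/-, which did not overlap. The median interaction of -0.23 stayed between -0.29 and -0.18 when 1 litter was left out. Nlrx1-/- minus WT had a median of 0.18 in vehicle and -0.04 under LPS+IFNγ, so the vehicle gap was the wider one.

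Other mitochondrial and lipid genes differed less, apart from sterol enzymes. In the TCA cycle and mitochondrial fatty acid oxidation, 7 of 26 genes were at an unadjusted p below 0.05, all toward a smaller response, among them the β-oxidation enzymes Acads (0.24 in WT, -0.09 in Nlrx1-/-) and Echs1 (0.55 and 0.27). Of 26 peroxisomal genes, 4 were, again all smaller, led by Scp2, a sterol carrier and thiolase (interaction -0.35), and Pex19, which brings in membrane proteins (-0.24). Cholesterol synthesis rose in both genotypes in all 23 tested genes, with medians of 1.28 in WT and 1.00 in Nlrx1-/-, and 15 had an unadjusted p below 0.05 toward the weaker rise. Tm7sf2, a sterol reductase, rose by 1.47, 1.80, 1.91 and 1.68 in WT and by 1.02, 0.43, 1.27 and 1.05 in Nlrx1-/- litters, and Nsdhl, of sterol demethylation, had an interaction of -0.54. The litter medians of this list were 1.17, 1.39, 1.47 and 1.19 in WT and 1.06, 0.64, 1.22 and 1.12 in Nlrx1-/-, where litter 3 was above WT litters 1 and 4. Nlrx1-/- was higher by a median of 0.53 in vehicle and 0.07 under LPS+IFNγ.

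Glycolysis and hypoxia-induced genes went in both directions. Of 22 tested genes, 6 had an unadjusted p below 0.05 toward a smaller response, namely the enzymes Pfkm, Pkm, Pfkl, Tpi1, Eno1 and Pgk1, and 4 toward a larger one, namely the enzymes Pfkp and Pfkfb3 and the hypoxia-induced genes Adm and Ndrg1. Adm, a vasodilator peptide raised by hypoxia, responded by 0.60, 0.20, -0.36 and -0.08 in WT and by 0.88, 0.92, 1.00 and 1.44 in Nlrx1-/- litters, an interaction of 0.97. Pfkm, the muscle type of phosphofructokinase, rose in WT and fell in Nlrx1-/-, by 0.15 and -0.21.

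The largest positive list median was that of the ATF4 and integrated stress response. Of 18 tested genes, 15 had an unadjusted p below 0.05 toward a larger response and 0 toward a smaller one, and 10 rose in WT against 15 in Nlrx1-/-, with medians of 0.60 and 1.52. Atf4, whose protein drives amino acid synthesis and transport genes, responded by 0.94, 1.01, 0.69 and 0.41 in WT and by 1.25, 1.62, 1.05 and 2.00 in Nlrx1-/- litters. Asns, asparagine synthetase, responded by 1.64, 1.20, 0.73 and 0.54 against 2.21, 2.37, 1.15 and 3.11, and Chac1, which degrades glutathione, by 2.45, -0.01, 0.61 and -0.32 against 3.09, 3.39, 0.51 and 4.00. Litter 3 lay within the WT range for Asns and Chac1. The litter medians of 1.20, 1.79, 0.54 and 2.27 in Nlrx1-/- against 0.34 to 0.88 in WT showed the same, and the median interaction of 0.74 ranged from 0.53 without Nlrx1-/- replicate 4 to 1.00 without Nlrx1-/- replicate 3.

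Other stress programs were less uniform. Of 20 genes for endoplasmic reticulum chaperones and the unfolded protein response, 5 had an unadjusted p below 0.05 toward a larger and 2 toward a smaller response, with median responses of 0.96 in WT and 1.02 in Nlrx1-/-. Pdia4, a disulfide isomerase, had an interaction of 0.32 and Herpud1, of protein degradation at the reticulum, one of 0.68, while Hspa5, the main chaperone, rose by 1.37 and 1.53, an interaction of 0.17 with a standard error of 0.14. Of 14 NRF2 targets, 8 were at an unadjusted p below 0.05, all larger, and Hmox1, which degrades heme, responded by 0.35, 0.30, -0.01 and 0.16 in WT and by 0.67, 1.90, 0.30 and 1.85 in Nlrx1-/- litters. Gclc, of glutathione synthesis, had an interaction of 0.42. The litter medians of the NRF2 list were 0.37 to 0.58 in WT and 0.68, 0.93, 0.43 and 1.05 in Nlrx1-/-, and litter 3 was within the WT range for the list and for Hmox1.

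Immediate-early and ribosome biogenesis genes also leaned to larger responses. Of 20 immediate-early genes and feedback inhibitors of ERK signalling, 12 had an unadjusted p below 0.05 toward a larger response and 0 toward a smaller one, with median responses of 0.36 in WT and 0.89 in Nlrx1-/-. The litter medians were 0.19, 0.58, 0.27 and 0.17 in WT and 0.69, 0.93, 0.48 and 1.11 in Nlrx1-/-, where litter 3 was within the WT range. Dusp4, a phosphatase of MAP kinases, responded by 0.33, 0.51, 0.87 and 0.11 in WT and by 1.05, 0.91, 1.28 and 1.52 in Nlrx1-/- litters. Ier2 responded by -0.62 to 0.01 in WT and by 0.70, 0.92, -0.12 and 0.99 in Nlrx1-/-, where litter 3 was again within the WT range. Of 25 ribosome biogenesis genes 11 were at an unadjusted p below 0.05, all larger, and 8 rose in WT against 23 in Nlrx1-/-. Its litter medians were -0.05 to 0.26 in WT and 0.51, 0.21, 0.21 and 0.62 in Nlrx1-/-, where litters 2 and 3 were within the WT range. Utp4 and Utp14a, of the small subunit processome, had interactions of 0.44 and 0.42.

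**Figure D5:**
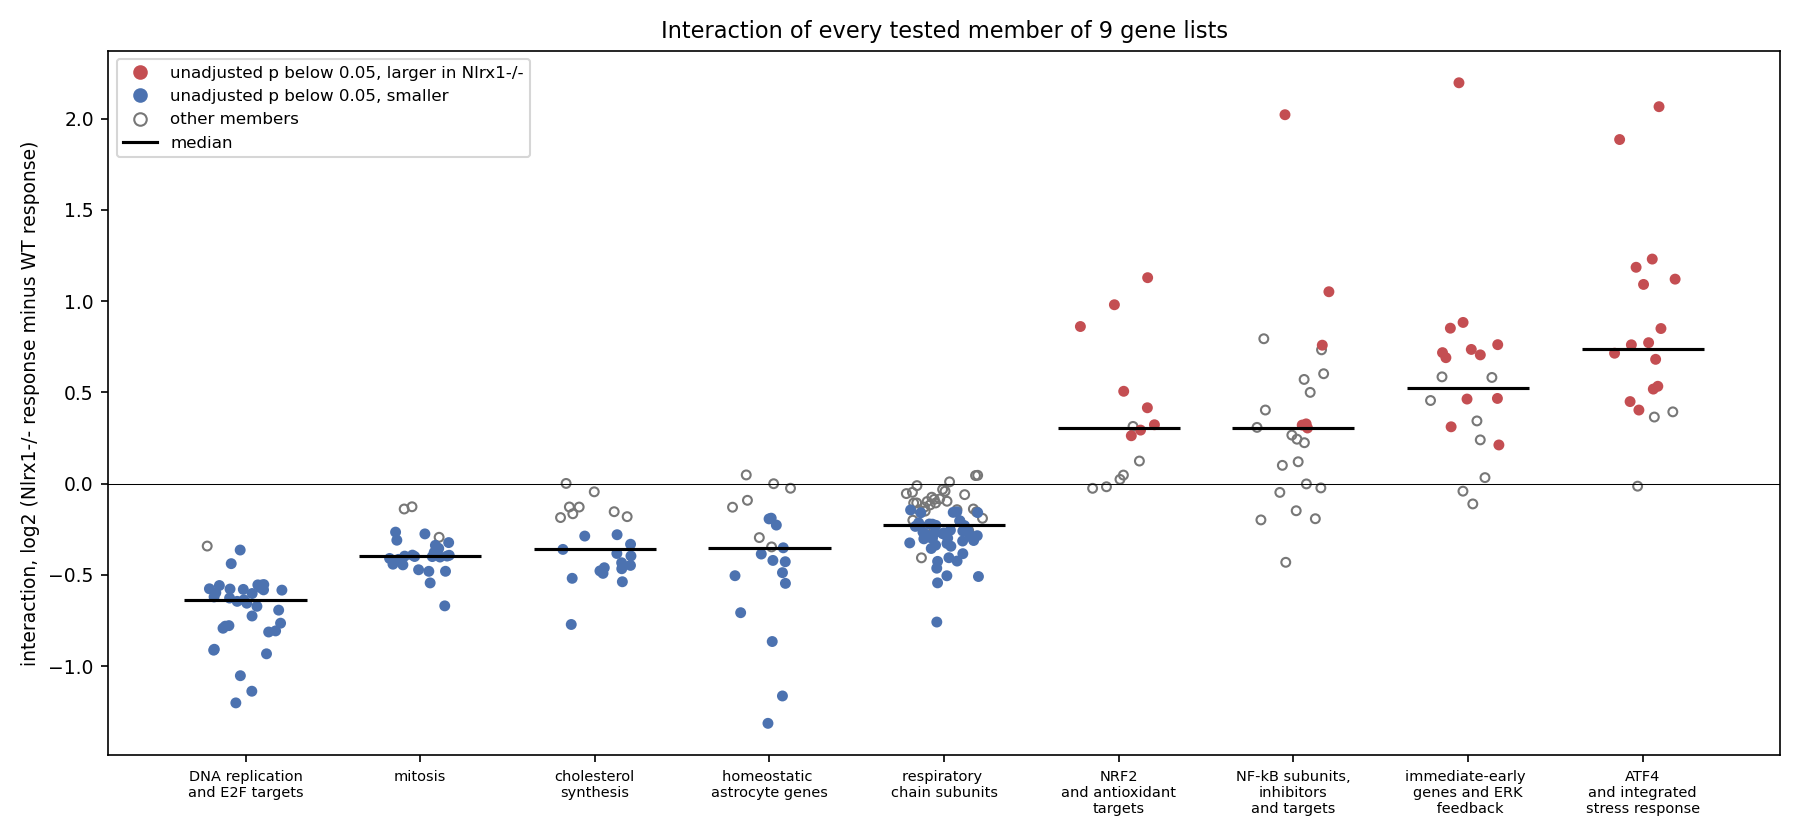
Interaction in log2 units (y axis) of every tested member of 9 gene lists, with filled points at an unadjusted p below 0.05, open points for other members and a line at the median. All members of the DNA replication and mitosis lists lie below 0, and all but 1 of the ATF4 list lie above.

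Homeostatic genes of the astrocyte had lower responses. Of 21 homeostatic genes, 14 fell in WT and 16 in Nlrx1-/-, 14 had an unadjusted p below 0.05 toward a smaller response and 0 toward a larger one, and the medians were -0.55 and -0.74. Glul, the glutamine synthetase, fell by 0.55 ± 0.09 (SD, 4 litters) in WT and by 0.98 ± 0.14 in Nlrx1-/-, with -0.60, -0.64, -0.44 and -0.53 against -0.91, -1.0, -0.84 and -1.16. S100b (chromosome 10, 76085090 to 76097159, GRCm39), a calcium-binding protein of astrocytes, responded by -1.17, -1.04, -0.59 and -1.0 against -1.90, -2.11, -1.57 and -2.87, an interaction of -1.16 (standard error 0.25, adjusted p = 0.164 by limma). The potassium channel Kcnj10 had -0.50, the glutamate transporter Slc1a2 -0.55 and the water channel Aqp4 -0.43, whereas the transporter Slc1a3 had -0.09 and the transcription factors Nfia and Nfib had interactions within 0.05 of 0. The litter medians did not overlap, with -0.62 to -0.29 in WT and -0.96 to -0.69 in Nlrx1-/-.

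Reactive astrocyte markers more often had larger than smaller responses. Of 30 tested markers, 9 had an unadjusted p below 0.05 toward a larger response, among them Steap4, Tm4sf1, Osmr, the oncostatin M receptor (interaction 1.01), Cd14, the LPS coreceptor (0.99), and Serping1, a complement inhibitor (0.91). The other direction held 3, C3, the central complement component (-1.13), H2-T23 (-0.46) and Emp1 (-0.46). Over all genes the shares were 6.76% larger and 9.92% smaller, so the count of smaller responses was near its share. C3 rose by 6.75, 7.47, 7.88 and 8.13 in WT and by 6.07, 6.18, 6.91 and 6.55 in Nlrx1-/- litters. Lcn2, an iron-binding acute phase protein, had 0 to 10 reads in vehicle libraries, and its stimulated level was 5.27, 6.22, 5.53 and 6.50 log2 CPM in WT and 6.02, 7.30, 6.51 and 7.31 in Nlrx1-/-, which overlap. The litter medians of the list were 0.47 to 0.51 in WT and 0.48, 1.41, 0.51 and 1.15 in Nlrx1-/-, so litters 2 and 4 alone were above WT. The median interaction of 0.40 was 0.20 without Nlrx1-/- replicate 2 and 0.58 without Nlrx1-/- replicate 3. Nlrx1-/- minus WT had a median of -0.50 in vehicle and -0.02 under LPS+IFNγ, so the gap lay mainly in a lower vehicle level.

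The remaining lists held few genes or opposed directions. Of 29 genes of TGF-β, BMP and matrix, 8 were at an unadjusted p below 0.05 toward a larger and 2 toward a smaller response, and Fbn2, a fibrillin, responded by 0.34, 0.32, -0.04 and 0.18 in WT and by 1.59, 1.22, 0.69 and 1.85 in Nlrx1-/- litters (interaction 1.14, standard error 0.22). Bmp4, a ligand, had -0.98. Of 18 circadian genes, 1 was larger, Cry1, and 2 smaller, Hlf and Bhlhe41, and of 30 motile cilia genes 1 was larger, Rfx2, and 1 smaller, Cfap206, all at an unadjusted p below 0.05. Of 20 autophagy genes, 2 were larger, Atg16l1, of the conjugation machinery, with -0.21 in WT and 0.19 in Nlrx1-/-, and the cargo receptor Sqstm1, with an interaction of 0.50. For Sqstm1, Nlrx1-/- minus WT was -0.49 in vehicle and 0.01 under LPS+IFNγ. The circadian, cilia and autophagy counts are near or below the shares of all genes, 6.76% larger and 9.92% smaller.

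Markers of other cells moved with some of these lists. The summed CPM of 9 astrocyte markers was 6080 to 9850 in WT vehicle and 4860 to 7610 in Nlrx1-/- vehicle, and 5830 to 8840 and 5040 to 6760 under LPS+IFNγ. Of these markers, most of them also in the homeostatic list, 7 were at an unadjusted p below 0.05 toward a smaller response and 0 toward a larger one. Their median interaction was -0.35. The 7 oligodendrocyte markers summed to 602 to 968 and 247 to 823 in vehicle, and to 375 to 759 and 195 to 458 under LPS+IFNγ, with 4 of 7 at an unadjusted p below 0.05 toward a smaller response and a median interaction of -0.64. The 5 markers of oligodendrocyte precursors summed to 2330 to 3140 and 2460 to 3710 in vehicle, and to 1970 to 2880 and 2130 to 2770 under LPS+IFNγ, with 2 smaller. The 8 fibroblast and mural markers summed to 197 to 302 and 118 to 320, then 114 to 197 and 110 to 193, with 2 larger and a median interaction of 0.53. Neuronal markers had 1 of 7 larger and ependymal markers 0 of 4 in either direction. The 2 microglia markers in the table summed to 25.9 to 48 over all libraries, and of 6 endothelial markers 2 were in the table with sums of 2.29 to 10, 1 of them at an unadjusted p below 0.05 toward a larger response and a median interaction of 0.90. In bulk RNA fewer cells of a type and less RNA per cell cannot be told apart, and the part of cell make-up in the lower response of the homeostatic genes, Gpr37 and Hes5 was not tested.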

How the data were processed

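RNA was captured by poly-A tails and sequenced without strand information, so overlapping genes cannot be told apart. The authors quantified transcripts with Salmon 1.7.0, whose estimated counts per transcript are in the deposited files, then made length-scaled counts per gene, filtered low genes and deposited TMM-scaled CPM (here treated as a signal) and its log2 values from limma 3.58.1, with a prior of about 0.0573 CPM. Groups and litters came from the sample labels, which say that same-numbered libraries of a genotype share their mice.

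From the log2 CPM, limma 3.58.1 in R 4.3.3 fitted genotype, litter within genotype and treatment within genotype (the study's formula, eBayes with trend) to all 16 libraries, with Benjamini-Hochberg adjustment over 16707 genes, two-sided, at 0.05. Deviations of the 2 libraries of a litter from their condition means had a Pearson r across genes of 0.26 to 0.618 (median 0.472). For libraries of different litters of a genotype it was -0.585 to 0.296 (median -0.117), so the ranges overlapped. Taking deviations from the condition mean by itself lowers the r between different litters. Counts for edgeR 4.0.16 and DESeq2 1.42.0 were recovered from the CPM with a factor per library, from 10253 genes that could be matched with Salmon's counts over 106440 of 129698 transcripts paired with a symbol, and rounded, and these are the reads given per library. The limma and edgeR fits were tested on simulated data. Python 3.11.15 was used for sums and plots.

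The genes named are the 3 with the largest interaction per kind of response (no overlap between litters, mean log2 CPM of at least 1, no provisional symbol), the 3 with the lowest p in each direction, the 2 with the lowest p per list, and Nlrx1. Further members of a list were named by their role after their values were seen. The comparison, the gene lists and the markers were chosen with earlier results of these data known. Alternatives covered the litter block, the test, the pseudocount, a filter on low values, the normalization, the variance trend, the threshold and each litter. Gene positions are from GENCODE M39 (GRCm39), found for 15288 genes. Values of a few genes are not reported here.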

Additional observations from a re-analysis of the deposited data

Results flagged for a closer look

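In 8 of 212 groups of 4 litters the response of 1 litter lay far from the other 3 (gap over range above Dixon's 95% critical value), and chance alone gives such a gap in about 1 of 20 groups. For E2f1, Nlrx1-/- litter 2 responded by -0.7852, with the others between 0.3112 and 0.5207. For the DNA replication list, the median of WT litter 1 was 0.2659, with the others between 0.7115 and 0.7431, and for Gins1, a replication factor of that list, WT litter 4 was at 0.8379 against 0.1428 to 0.2078. Utp4 was at -0.2642 in WT litter 4 and at 0.6872 in Nlrx1-/- litter 4, each the litter farthest from the other genotype. Nlrx1 itself was at -0.3642 in WT litter 1, Mmp2 at -0.6753 in Nlrx1-/- litter 2, and the autophagy list at 0.0581 in Nlrx1-/- litter 2.

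For 12 of the named genes every WT litter responded in one direction and every Nlrx1-/- litter in the other. The interaction was 1.314 for Col25a1, 1.164 for St3gal1, 0.7625 for Snhg12, 0.438 for Utp4, 0.4182 for Utp14a, 0.4064 for Nkiras1, 0.3993 for Atg16l1 and 0.3783 for Nol8, with negative responses in every WT litter. It was -0.7186 for Nudt1, -0.6742 for S100a6, -0.6589 for Pacsin3 and -0.327 for Acads, with negative responses in every Nlrx1-/- litter. The difference was tested for each by limma, and 0 of the 12 passed the adjusted threshold. Named genes were picked for litter responses without overlap or for a low p, which favours opposite signs. The share of all genes with such signs was not counted. Some signs rest on values near 0, such as -0.005 for Nkiras1 in WT litter 4 and -0.007 for Acads in Nlrx1-/- litter 1.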

How the results depend on the processing

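Of the alternatives, 2 gave calls for the interaction. DESeq2 called 127 genes with a larger and 234 with a smaller response, and leaving out 1 litter gave 0 to 378 and 0 to 444, with calls only without Nlrx1-/- replicate 3. The number at an unadjusted p below 0.05 was 1129 and 1657 with litters as blocks, 553 and 709 with no litter block, and 736 and 1005 when the replicate number was also paired across genotypes, which the labels do not support. It was 765 to 1723 and 1188 to 1962 with 1 litter left out, lowest without WT replicate 3 and highest without Nlrx1-/- replicate 3. Among the 83 named genes, 0 reversed in any alternative, 46 were called by DESeq2 and 52 without Nlrx1-/- replicate 3, and 1479 of the other values kept direction and stayed uncalled. With no litter block stronger rises numbered 112 in place of 292 and with quantile normalization weaker falls 124 in place of 78. Median-of-ratios scaling moved every library by under 0.02 log2 units. The cause of these shifts was not tested. The median interaction of the lists of cytokines, interferon receptors, interferon effectors, glycolysis, circadian and autophagy genes changed sign when 1 litter was left out, and that of the other lists did not. Genes near 0 reads in vehicle have responses that depend on the prior.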
